A study of Mus musculus with 30 samples.

Results

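Crotonylation and acetylation of the same residue, lysine 9 of histone H3, were compared in forebrain tissue of untreated C57BL/6 mouse embryos at the embryonic stage E13.5. Chromatin immunoprecipitation followed by sequencing (ChIP-seq) was made with an antibody to the crotonylated form (H3K9cr) in 1 library and with an antibody to the acetylated form (H3K9ac) in 1 library, next to 1 input library and 1 RNA-seq library of the same tissue, stage and strain. The peaks compared were the 12492 of the H3K9cr list and the 16610 of the H3K9ac list, 29102 of the 128515 peaks deposited for the series. The labels do not say whether these libraries came from the same embryos or how many embryos were pooled. With 1 library per mark no difference between the marks has a replicate check, and the intervals given below cover counting error only. In bulk tissue, fewer cells with a mark and less of the mark per cell cannot be told apart.

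Both marks neutralise the positive charge of lysine 9 and are found at the promoters of active genes. The acetyltransferase p300 and its relative CBP can place either group, depending on the acyl-CoA at hand, and class I histone deacetylases and sirtuins can remove both. Proteins differ in which form they bind: bromodomains recognise acetyl-lysine, whereas YEATS domains (in Mllt3, Mllt1, Yeats2 and Yeats4) and the double PHD fingers of the Dpf proteins also bind crotonyl-lysine. At this stage the forebrain holds radial glia, the stem cells that line the ventricles, together with basal progenitors and young neurons of the cortex and of the ventral ganglionic eminences.

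The 6 promoters below show the kinds of place that the lists contain. Each runs from 250 bases before to 50 bases after a listed gene start, is taken from RefSeq on GRCm38.p6, is written 5′ to 3′ on the strand of the gene and has each CG dinucleotide, the site of DNA methylation in mammals, in capitals. Hnrnpu (chr1:178337766-178338065, minus strand) lay under some of the highest folds of both marks. At Ranbp9 (chr13:43480924-43481223, minus strand) H3K9cr ranked higher among genes than H3K9ac did, and at Inpp5a (chr7:139388859-139389158, plus strand) it ranked lower. Zfp459 (chr13:67421369-67421668, minus strand) had H3K9cr alone, Cntn2 (chr1:132542891-132543190, minus strand) had H3K9ac alone, and Hbb-y (chr7:103853158-103853457, minus strand) had neither mark.
Hnrnpu: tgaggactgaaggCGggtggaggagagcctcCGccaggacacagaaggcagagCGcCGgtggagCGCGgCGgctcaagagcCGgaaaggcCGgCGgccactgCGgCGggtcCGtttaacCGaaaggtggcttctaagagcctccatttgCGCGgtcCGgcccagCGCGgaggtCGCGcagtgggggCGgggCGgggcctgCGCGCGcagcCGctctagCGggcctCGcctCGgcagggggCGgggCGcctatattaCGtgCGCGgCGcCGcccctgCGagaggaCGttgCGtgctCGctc
Ranbp9: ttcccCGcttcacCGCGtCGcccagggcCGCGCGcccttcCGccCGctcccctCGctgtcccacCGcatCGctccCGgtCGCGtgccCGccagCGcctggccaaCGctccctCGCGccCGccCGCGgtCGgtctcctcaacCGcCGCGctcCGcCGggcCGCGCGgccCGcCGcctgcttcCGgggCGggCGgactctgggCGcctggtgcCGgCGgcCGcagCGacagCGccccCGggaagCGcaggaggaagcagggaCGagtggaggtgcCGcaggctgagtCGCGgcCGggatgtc
Inpp5a: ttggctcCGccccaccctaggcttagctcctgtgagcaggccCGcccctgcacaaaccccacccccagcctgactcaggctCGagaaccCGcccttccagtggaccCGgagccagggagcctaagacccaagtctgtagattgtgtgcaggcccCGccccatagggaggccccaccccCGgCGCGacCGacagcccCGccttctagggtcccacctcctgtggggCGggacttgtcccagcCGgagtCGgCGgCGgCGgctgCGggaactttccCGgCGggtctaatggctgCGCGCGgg
Zfp459: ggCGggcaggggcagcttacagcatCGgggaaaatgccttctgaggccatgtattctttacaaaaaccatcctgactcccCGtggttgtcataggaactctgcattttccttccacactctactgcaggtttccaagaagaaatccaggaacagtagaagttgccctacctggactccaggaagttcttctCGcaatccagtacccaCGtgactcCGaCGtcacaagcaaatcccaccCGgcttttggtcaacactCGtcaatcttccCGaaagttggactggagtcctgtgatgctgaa
Cntn2: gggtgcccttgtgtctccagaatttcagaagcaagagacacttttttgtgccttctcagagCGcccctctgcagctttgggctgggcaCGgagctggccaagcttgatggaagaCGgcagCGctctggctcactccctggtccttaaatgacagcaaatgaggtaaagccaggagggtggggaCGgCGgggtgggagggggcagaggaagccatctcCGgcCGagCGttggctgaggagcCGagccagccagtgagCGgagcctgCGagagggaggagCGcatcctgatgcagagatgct
Hbb-y: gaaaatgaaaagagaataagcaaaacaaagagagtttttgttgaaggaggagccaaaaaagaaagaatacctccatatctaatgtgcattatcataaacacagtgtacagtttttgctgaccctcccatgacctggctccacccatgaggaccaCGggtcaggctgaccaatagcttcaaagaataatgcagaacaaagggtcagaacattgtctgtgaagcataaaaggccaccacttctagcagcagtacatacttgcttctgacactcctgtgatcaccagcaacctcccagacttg
The sequences held 41 CG dinucleotides at Hnrnpu, 50 at Ranbp9, 23 at Inpp5a, 10 at Zfp459, 13 at Cntn2 and 1 at Hbb-y.

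The widest H3K9cr peaks lay over microRNA genes of neural tissue, whose mature sequences (RefSeq, GRCm38.p6) are shown with the seed, bases 2 to 8, in capitals. The 3 genes of miR-9, a microRNA of neural progenitors, give the same pair of mature sequences, and miR-125b comes from a further locus with a wide peak. The 3 seeds differ from each other.
miR-9-5p: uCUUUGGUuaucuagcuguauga
miR-9-3p: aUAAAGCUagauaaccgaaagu
miR-125b-5p: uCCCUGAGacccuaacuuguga

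Nearly all H3K9cr peaks lay on an H3K9ac peak, while many H3K9ac peaks had no H3K9cr peak. At least 1 base was shared with the other list by 12438 of 12492 H3K9cr peaks (99.6%, exact binomial 95% interval 99.4 to 99.7%) and by 11377 of 16610 H3K9ac peaks (68.5%, 67.8 to 69.2%). Counted in bases, 99.0% of the 12.1 Mb under H3K9cr peaks was also under H3K9ac, against 56.7% of the 21.1 Mb under H3K9ac peaks. Where the marks met, the H3K9cr peak lay wholly inside the H3K9ac peak in 88.3% of 12450 pairs and was the narrower in 97.8%, with a median width of 63.2% of its partner. The summits were a median of 47 bp apart, and 81.1% of pairs had them within 200 bp of each other. The share of overlapping peaks depended on what counts as shared: when 50% of both peaks had to be covered, it was 67.2% of H3K9cr peaks and 50.5% of H3K9ac peaks. It depended on list length too: among the 5000 peaks of each list with the highest −log10 p, 90.3% of H3K9cr peaks and 88.7% of H3K9ac peaks were shared.

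Whether an H3K9ac peak carried H3K9cr went with its height. Fold enrichment, as the authors' peak caller gave it, sets the number of ChIP fragments at the summit against the local background. Of 1699 H3K9ac peaks below 4-fold 2.35% overlapped an H3K9cr peak, of 2586 between 4- and 6-fold 12.6%, of 1563 between 6- and 8-fold 43.9%, and of 1190 between 8- and 10-fold 75.8%. At 24-fold and above 4446 of 4448 did. The share climbed with fold at gene starts and far from them, and was lower far from starts between 4- and 8-fold. Far peaks had their summit over 10 kb from any listed start. They also lay over 1 kb from both ends of all protein-coding and long noncoding RNA genes. Between 6- and 8-fold the share was 47.8% (44.2 to 51.5%) of peaks with a summit within 1 kb of a listed gene start. It was 35.9% (30.8 to 41.3%) of far peaks. Between 8- and 10-fold it was 77.2% (73.9 to 80.2%) at starts and 73.2% (65.5 to 80.0%) at far peaks.

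**Figure D1:**
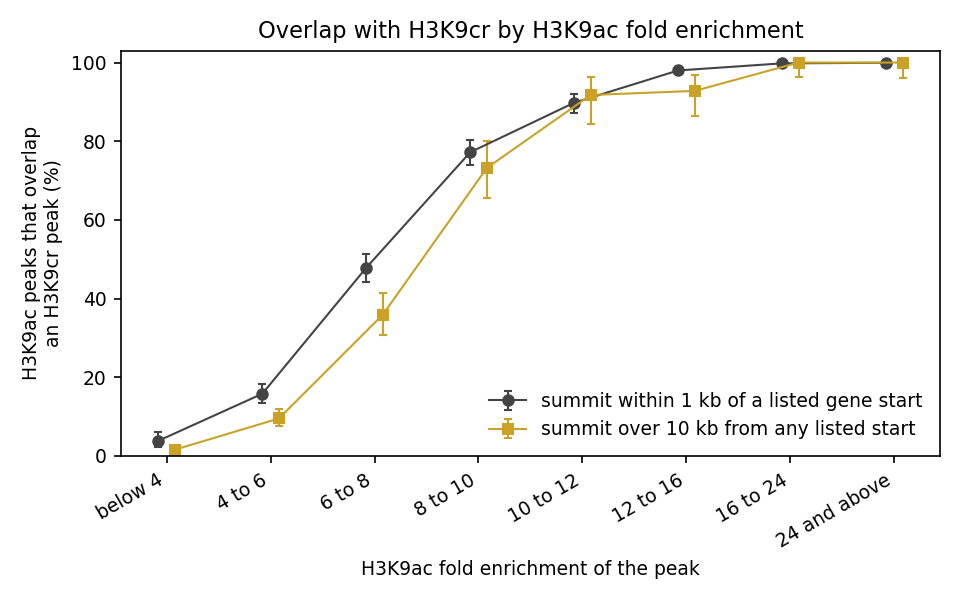
Share of H3K9ac peaks that overlap an H3K9cr peak (y axis, percent) by H3K9ac fold enrichment (x axis). Circles are peaks with a summit within 1 kb of a listed gene start. Squares are far peaks, with a summit over 10 kb from any listed start. Far peaks also lie over 1 kb from both ends of all protein-coding and long noncoding RNA genes. Bars are exact binomial 95% intervals. The share runs from 3.86% at starts and 1.60% far from them below 4-fold to over 99% at 24-fold and above.

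The lists had nearly the same lower limit and differed in height. The number of fragments at each summit could be recovered from the deposited fold and p-value, as a whole number for all peaks of both lists. H3K9cr peaks had a median of 35 fragments (lowest 10, highest 240) and H3K9ac peaks a median of 58 (lowest 11, highest 686), over a commonest background of 2.82 fragments for H3K9cr and 3.12 for H3K9ac. The 5233 H3K9ac peaks without H3K9cr were mostly low, with a median of 4.61-fold and 20 fragments. An H3K9cr signal under the caller's threshold is not seen in a peak list, and its level at these places was not measured. Among the highest H3K9ac peaks without H3K9cr were those at Tcte3, on chromosome 17, with 26.2-fold, and at the peroxisomal import receptor Pex7, on chromosome 10, with 25.7-fold.

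The 54 H3K9cr peaks without H3K9ac were all close to the detection limit. They had 10 to 18 fragments at the summit, folds of 2.76 to 4.97 and a median width of 291.5 bp, and 2 of 54 met a peak of the pan-crotonyl-lysine list of cultured neural stem and progenitor cells (NSPCs) from the same series. Of the shared H3K9cr peaks 64.0% met such a peak. With peaks of −log10 q of at least 10 in both lists, 99.96% of 9102 H3K9cr peaks overlapped H3K9ac.

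At shared places the heights of the 2 marks went together. Over the 12450 pairs the folds had a Spearman correlation of 0.85, a description across places that share the tissue, the strain, the input library and the caller. The fold was a median of 8.76 for H3K9cr and 19.4 for H3K9ac in the 10414 pairs where 1 peak met 1 peak, and there the correlation was 0.94. The other pairs came largely from wide H3K9ac peaks that held several H3K9cr peaks: 949 held 2 or more, and up to 7. In these the highest H3K9cr peak followed H3K9ac closely (954 pairs, Spearman 0.93). The 1068 lesser H3K9cr peaks beside it had a median of 4.73-fold against 22.8-fold for the whole H3K9ac peak, and a summit 850 bp away (Spearman 0.37).

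**Figure D2:**
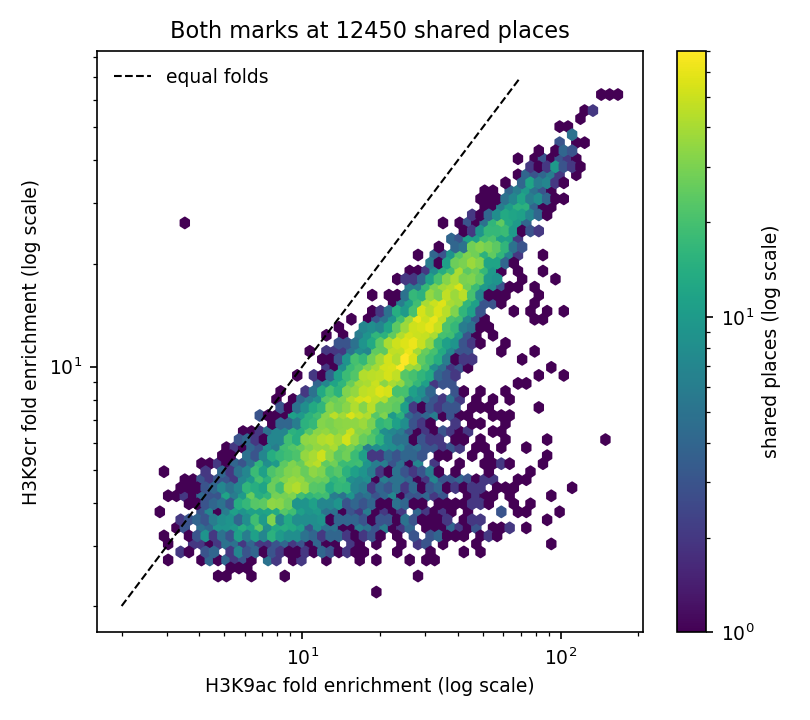
Fold enrichment of H3K9ac (x axis, log scale) and H3K9cr (y axis, log scale) at 12450 shared places; colour gives the number of places on a log scale and the dashed line marks equal folds. Most places lie along a band below the line, and the places at the lower right are H3K9cr peaks of low fold under high H3K9ac peaks.

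The H3K9cr fold was the lower in 99.5% of pairs. Folds from 2 antibodies are on scales of their own, so this does not say that less lysine 9 was crotonylated than acetylated. In the 57 pairs with the higher H3K9cr fold both peaks were mostly low, with medians of 4.801-fold for H3K9cr and 4.15-fold for H3K9ac. In 43 of the 57 the H3K9cr fold was below 6 and in 14 it was 6 or more. The highest was an H3K9cr peak of 26.2-fold at Zfc3h1 on chromosome 10, which crossed 2 H3K9ac peaks. Its fold was above that of the H3K9ac peak of 3.40-fold and below that of the other H3K9ac peak. This pair therefore does not show a place where H3K9cr stood above all H3K9ac under the same peak.

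The 8 genes with the highest H3K9cr folds carried some of the highest H3K9ac folds as well. Pcif1, which methylates the mRNA cap, had 62.3-fold H3K9cr from 237 fragments (exact Poisson 95% interval 207.8 to 269.2) and 149.7-fold H3K9ac from 616 (568.3 to 666.6). The splicing factor Rbm39 had 62.2-fold H3K9cr and 146.5-fold H3K9ac, and β-actin (Actb) 61.0-fold H3K9cr and 166.6-fold H3K9ac, the highest fold of the H3K9ac list. Hnrnpu, a nuclear RNA-binding protein whose promoter is shown above, had 56.5-fold H3K9cr and 123.7-fold H3K9ac. The deubiquitinase Usp22 had 54.5-fold and the splicing kinase Clk1 52.6-fold H3K9cr. Tardbp, which encodes the RNA-binding protein TDP-43, had 49.9-fold and the chromatin remodelling subunit Smarce1 49.3-fold H3K9cr. In all 8 the 2 summits were at most 95 bp apart. TPM is the share of a gene among all transcripts after correction for length. RNA of these genes spanned a wide range, from 63.4 TPM for Pcif1 to 2327 TPM for Actb.

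Among genes the 2 marks gave nearly the same order. A gene was given the highest peak within 1 kb of its listed start or, where no start is listed, of either end. In 9319 genes with at least 5 TPM and overlapping peaks of both marks, the percentile ranks of the folds differed by 10 points or less in 69.7%, and the middle 50% of differences (H3K9cr minus H3K9ac) lay between -5.73 and 6.20 points. The difference had almost no relation to RNA (Spearman -0.03) or to the width of the H3K9cr peak (0.02).

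The genes with H3K9cr ranked farthest above H3K9ac included Gspt1, Zhx2, Myadm, Tbrg4, Ralgds and Pde10a. The summits of the 2 marks were 403 to 652 bp apart at Gspt1, Zhx2, Tbrg4 and Pde10a. At Myadm they were 14 bp and at Ralgds 65 bp apart. Gspt1, a translation termination factor, had 15.8-fold H3K9cr from 62 fragments and 18.3-fold H3K9ac from 154 fragments. The local H3K9ac background there was 7.47 fragments, against a commonest value of 3.12, and it was 7.47 at Zhx2 and Pde10a too. Over all 9319 genes the rank difference had a Spearman correlation of 0.03 with the H3K9ac background and of -0.15 with the H3K9cr background. The 8 with H3K9cr ranked farthest below H3K9ac were Gcat, Rras, Npm1, Mlxip, Thra, Zfp574, Muc1 and Tnpo2, and at all 8 the summits of the 2 peaks were 667 to 1892 bp apart. In 7 of them the H3K9ac peak held 2 H3K9cr peaks. Gcat, an enzyme of threonine breakdown, had 4.73-fold H3K9cr and 44.9-fold H3K9ac, and the same H3K9ac peak held an H3K9cr peak of 22.2-fold nearest to the start of the linker histone gene H1f0. At Rras, a small GTPase, the values were 5.57-fold H3K9cr and 46.4-fold H3K9ac, with a second H3K9cr peak of 22.4-fold nearest to Scaf1. With peaks taken within 2 kb of the start in place of 1 kb, the H3K9cr fold at Gcat was 22.2.

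Where 1 peak met 1 peak with summits within 200 bp, a choice made after seeing the values above, 7516 genes remained and the folds had a Spearman correlation of 0.94. Differences of rank ran down to -44.7 points at the low end. Among the genes with H3K9cr ranked higher, Myadm had 52 H3K9cr fragments (38.8 to 68.2) and 85 H3K9ac fragments (67.9 to 105.1), giving 12.6-fold H3K9cr and 14.4-fold H3K9ac. That placed it at percentile 61.6 for H3K9cr and 20.1 for H3K9ac. Ranbp9, a scaffold protein that binds Ran, had 18.5-fold H3K9cr and 23.3-fold H3K9ac, and Ralgds, an activator of Ral GTPases, had 12.04-fold H3K9cr and 14.8-fold H3K9ac. At the other end Rnh1, the ribonuclease inhibitor, had 6.34-fold H3K9cr and 29.1-fold H3K9ac. Inpp5a, an inositol phosphatase, had 30 H3K9cr fragments and 145 H3K9ac fragments, 8.12-fold and 35.4-fold, with summits 1 bp apart. Pcyt2, an enzyme of phosphatidylethanolamine synthesis, had 5.24-fold H3K9cr and 24.99-fold H3K9ac. The ribosomal protein gene Rpsa had 10.2-fold H3K9cr and 46.1-fold H3K9ac. When the genes were ranked by fragments in place of folds, Inpp5a, Pcyt2 and Rnh1 stayed among the 8 at the bottom, and Myadm, Ranbp9 and Ralgds were no longer among the 8 at the top.

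H3K9cr peaks were narrower than H3K9ac peaks, with a median of 802 bp (95% interval 790 to 813) against 1093.5 bp (1078 to 1109). Wide H3K9cr peaks were few: 34 exceeded 5 kb, against 125 H3K9ac peaks. Of the 34, 7 covered a microRNA hairpin, against 75 of all 12492 H3K9cr peaks (0.6004%). Wide peaks cover more bases and so meet any small feature more often, and no share per base was computed. Counted by hairpin, 83 of 1228 hairpins (6.76%) lay under an H3K9cr peak and 108 (8.79%) under an H3K9ac peak. The 3 widest H3K9cr peaks were those over the 3 miR-9 genes. The peak over Mir9-2 (chr13:83713586-83742057) was 28472 bp wide with 35.3-fold H3K9cr, inside an H3K9ac peak of 29741 bp and 75.4-fold. Over Mir9-1 (chr3:88203550-88220083) H3K9cr covered 16534 bp with 25.7-fold, and H3K9ac covered 25173 bp with 34.8-fold. Over Mir9-3 (chr7:79498757-79512478) H3K9cr covered 13722 bp with 24.9-fold, and H3K9ac covered 25955 bp with 65.0-fold. In width these H3K9ac peaks ranked 2 (Mir9-2), 4 (Mir9-1) and 3 (Mir9-3) of their list.

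Wide H3K9cr peaks also lay over protein-coding genes. Tnrc18 had 11279 bp, Nfib, a transcription factor of neural and glial differentiation, 10376 bp, and the locus of Mir125b-1 and its host transcript Mir100hg 8686 bp of H3K9cr. The cortical transcription factor genes Nr2f1 and Bcl11a had 8234 bp and 8217 bp of H3K9cr. The 3 miR-124 genes, whose product is abundant in neurons, lay under H3K9cr peaks of 7971 bp (Mir124a-2), 7084 bp (Mir124a-1) and 4378 bp (Mir124a-3), which ranked 11, 17 and 48 in width. Small RNA was not measured here, so the level of these microRNAs is not known, but the host transcript Mir9-3hg had 282.7 TPM.

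**Figure D3:**
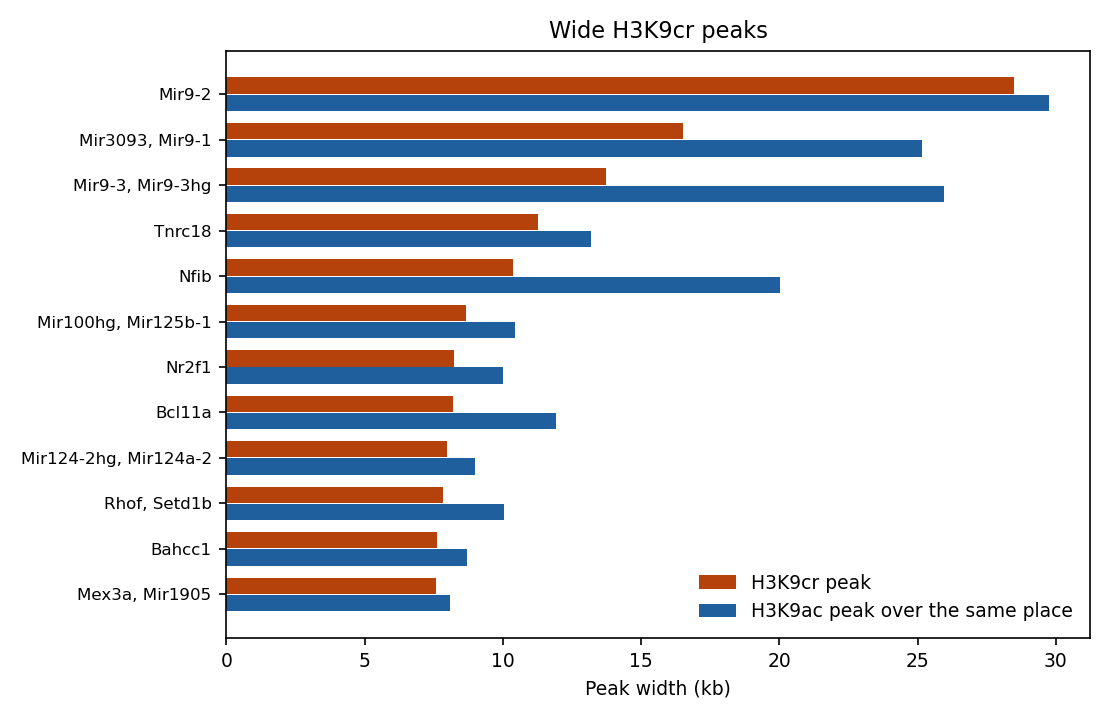
Width in kb (x axis) of 12 of the widest H3K9cr peaks (upper bar of each pair) and of the H3K9ac peak over the same place (lower bar), named by the genes they cover, without predicted genes. The 3 miR-9 genes lead, at 28472, 16534 and 13722 bp of H3K9cr, and all 12 H3K9cr peaks are narrower than the H3K9ac peak drawn below them.

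H3K9cr was the more concentrated at gene starts. Of the peaks on chromosomes with listed starts, 72.8% of H3K9cr peaks had their summit within 1 kb of a start (95% interval 72.0 to 73.6%), against 62.7% of H3K9ac peaks (62.0 to 63.5%). Far peaks, as defined above, made up 6.92% of H3K9cr peaks and 14.5% of H3K9ac peaks. Peaks over 10 kb from a listed start but within 1 kb of a gene end were not counted as far. Within the H3K9ac list, those shared with H3K9cr lay at starts in 74.6% and those without H3K9cr in 36.8%. The far H3K9ac peaks were also the lower: those without H3K9cr had a median of 4.34-fold. The summits near starts lay downstream of them, by a median of 212 bp for H3K9cr and 197 bp for H3K9ac. Some far peaks lie over genes whose start is not listed, such as the H3K9cr peak of 47.4-fold over Hexim2 on chromosome 11.

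Genes with more RNA had both marks more often, and above 5 TPM at higher fold. Of 24833 genes with a position 43.8% had an H3K9cr peak and 51.5% an H3K9ac peak, and of the 13088 with at least 1 TPM 78.6% had H3K9cr, 88.6% H3K9ac and 78.5% both. The step between absence and presence lay at low RNA levels. Genes at 0 TPM had H3K9cr in 2.34% and H3K9ac in 3.98%. At 1 to 5 TPM the shares were 37.2% for H3K9cr and 61.3% for H3K9ac, at 5 to 20 TPM 74.4% and 88.8%, and at 100 TPM and above 96.5% and 97.5%. Where a peak was present, the median fold did not climb with RNA at the low end: it was 7.31 for H3K9cr and 8.84 for H3K9ac at 0 TPM, and 6.26 for H3K9cr and 8.25 for H3K9ac at 1 to 5 TPM. From 5 to 20 TPM it was 7.59 for H3K9cr and 14.7 for H3K9ac, and at 100 TPM and above it was 15.1 for H3K9cr and 34.7 for H3K9ac.

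**Figure D4:**
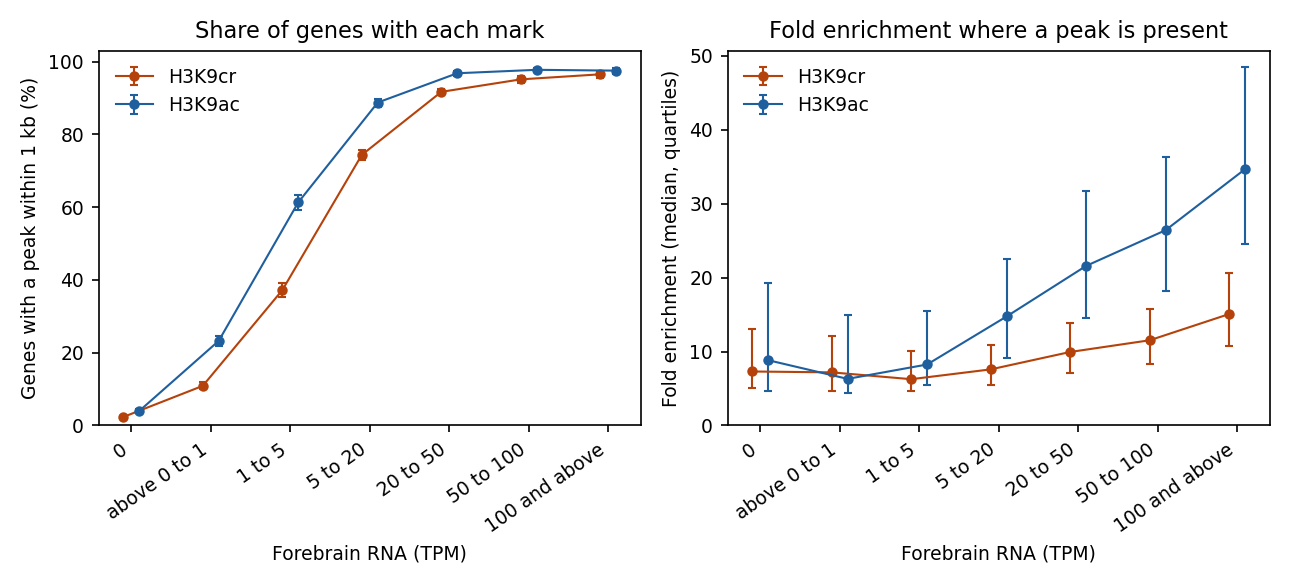
Left, share of genes with a peak within 1 kb (y axis, percent, with exact binomial 95% intervals) by forebrain RNA (x axis, TPM); right, median fold enrichment with quartiles of the genes that have a peak. H3K9cr runs from 2.34% of genes at 0 TPM to 96.5% at 100 TPM and above, and H3K9ac from 3.98% to 97.5%.

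Over genes with at least 1 TPM the Spearman correlation of fold and RNA was 0.45 for H3K9cr (10282 genes with that mark) and 0.54 for H3K9ac (11591 genes). The 2 sets of genes differ, since the H3K9ac set includes the low genes that H3K9cr lacks. Over the 10277 genes with both marks the values were 0.45 for H3K9cr and 0.46 for H3K9ac. They were 0.51 for H3K9cr and 0.53 for H3K9ac over the 7620 of these genes that shared their H3K9cr peak with no other gene. Peak width gave 0.38 for H3K9cr and 0.36 for H3K9ac. These correlations run across genes, which are not independent, of 1 RNA library and 1 library per mark.

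Genes with both marks accounted for 93.6% of the RNA of all genes with a position. The 10874 genes with both had a median of 30.6 TPM, the 1922 with H3K9ac alone 2.82 TPM, the 10 with H3K9cr alone 0.956 TPM, and the 12027 with neither 0 TPM. Among the 8 of the 10 that are not predicted genes, Lonrf3 had 4.41 TPM and 3.40-fold H3K9cr, Rgs6, a regulator of G protein signalling, 2.23 TPM and 3.93-fold, and the zinc finger gene Zfp459 1.12 TPM and 4.97-fold. The others, Krt222, Dynlrb2, Enpp3, Pheta2 and Oas1c, lay between 0.272 and 1.23 TPM. None of the 8 exceeded 18 H3K9cr fragments.

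Of the 1314 genes with at least 1 TPM and H3K9ac alone, 173 (13.2%) had an H3K9cr peak at another place along the gene. The 8 with the most RNA and H3K9ac alone were Rpl17, Ptov1, Metap2, Rbfox2, Ccnd2, Cntn2, Ly6h and Ndufa1, and 6 of them had an H3K9cr peak over the gene, outside the 1 kb window. At Rpl17, Ptov1, Metap2, Rbfox2 and Ly6h an H3K9cr peak overlapped that same H3K9ac peak. Its fold ran from 11.8 at Ly6h to 25.1 at Rpl17, so the class of these genes rests on the window. Cntn2, an adhesion molecule of axons, and Ndufa1, a subunit of respiratory complex I, had no H3K9cr peak over the gene. Cntn2 had 171.3 TPM and 5.45-fold H3K9ac at its listed start, and Ndufa1 162.1 TPM and 7.52-fold H3K9ac. Counted over the whole gene and 1 kb either side, 82.4% of the genes with at least 1 TPM had H3K9cr and 92.0% H3K9ac. Other genes with H3K9ac and much RNA but no H3K9cr peak over the gene, named after their values were seen, were Rtl8b (157.0 TPM), Ccl27a (156.5 TPM), the imprinted growth regulators Grb10 (153.3 TPM) and Dlk1 (106.9 TPM), and the X-linked Bex1 (123.5 TPM) and Bex4 (112.6 TPM). The H3K9ac folds of these genes ran from 4.37 at Dlk1 to 10.4 at Ccl27a.

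The most abundant RNAs without either mark were those of globins. Hba-a2 had 4322 TPM, Hbb-y 2358 TPM, Hba-a1 2234 TPM, Hbb-bs 1856 TPM and Hbb-bt 760.7 TPM, with no peak of H3K9cr or H3K9ac over the gene. Hba-a1 and Hba-a2 are near-identical copies, so the split of reads between them is uncertain. Globins are made by red blood cells, and the summed TPM of 10 erythroid genes was 11931, while the erythroid transcription factor gene Klf1 had 0.399 TPM. How much of the tissue's RNA came from blood was not tested. Rps27rt (2129 TPM, neither mark) is a retrocopy of a ribosomal protein gene, with which it can share reads. Sst, the somatostatin gene of interneurons, had 137.0 TPM and neither mark over the gene.

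Promoters with both marks were rich in CG dinucleotides. In the 300-base windows around listed starts the median was 23 CG in 10681 promoters with both marks, 16 in 1941 with H3K9ac alone and 3 in 12684 with neither, against 10 in all 25317. Among promoters with both marks the number of CG had a weak relation to fold, with a Spearman correlation of 0.20 for H3K9cr and 0.18 for H3K9ac. Within ranges of H3K9ac fold the CG counts of genes with and without H3K9cr lay close together in some ranges and apart in others, and the median TPM was higher with H3K9cr in each range given here. The ranges do not fully match H3K9ac, since in each the genes with H3K9cr also had higher and wider H3K9ac peaks. Between 6- and 8-fold the median H3K9ac fold was 7.03 with H3K9cr and 6.79 without, and the median H3K9ac width 881.5 bp and 684 bp. Between 4- and 6-fold H3K9ac the 137 genes with H3K9cr had a median of 19 CG and 3.62 TPM, and the 638 without had 16 CG and 1.94 TPM. Between 6- and 8-fold H3K9ac the 336 genes with H3K9cr had a median of 19 CG and 6.83 TPM, and the 333 without had 19 CG and 4.52 TPM. Between 8- and 10-fold the 511 with H3K9cr had 19 CG and 10.7 TPM, and the 150 without 21 CG and 8.29 TPM. Between 10- and 12-fold the 552 with H3K9cr had 21 CG and 16.3 TPM, and the 59 without 16 CG and 11.3 TPM.

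Short motifs, searched as exact letters on both strands, were spread over the same classes. CCGGAAG, a core of sites of ETS factors, was in 20.2% of promoters with both marks, 7.88% of those with H3K9ac alone and 2.79% of those with neither, against 10.5% of all. GGGCGG, a core of Sp1 sites, was in 69.0% with both marks, 59.9% with H3K9ac alone and 16.5% with neither, against 42.0% of all. Both of these motifs contain CG, and no comparison at equal CG count was made. TATAAA, which has none, was in 5.49% with both marks, 7.93% with H3K9ac alone and 19.4% with neither, against 12.6% of all, and CCAAT in 37.9% with both marks, 37.4% with H3K9ac alone and 37.5% with neither, against 37.7% of all. A match describes the letters in the window and is not evidence of binding.

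Genes of the forebrain's own cells are set here against all genes with RNA. At 1 TPM or more 78.6% of these had H3K9cr and 88.6% H3K9ac, and at 20 to 50 TPM 91.7% and 96.8%. At 50 to 100 TPM the shares were 95.1% and 97.8%, and at 100 TPM and above 96.5% and 97.5%. Median TPM was 84.8 for the radial glia, 89.9 for the proneural and 207.5 for the young neuron genes. It was 92.4 for the cortical, 84.6 for the ventral forebrain and 31.7 for the synapse genes. H3K9cr was at a lower share of each of these lists than of all genes with like RNA, and the lists are short. Of 18 genes of radial glia and neural stem cells 15 had H3K9cr and 17 H3K9ac within 1 kb of the position used, and over the whole gene 17 had H3K9cr and 18 H3K9ac. Fabp7, a fatty acid binding protein of radial glia, had 786.8 TPM with 4.38-fold H3K9cr and 9.24-fold H3K9ac, low folds for its RNA. The intermediate filament gene Vim had 766.4 TPM with 7.96-fold H3K9cr and 19.02-fold H3K9ac. Sox2, a stem cell transcription factor, had 229.3 TPM with 12.9-fold H3K9cr over 5395 bp and 22.6-fold H3K9ac over 19105 bp. Msi1, an RNA-binding protein of neural stem cells, had 313.7 TPM and neither mark at its ends, which stand in for a start that is not listed, but both elsewhere over the gene. Slc1a3, the glutamate transporter GLAST, was the member without H3K9cr anywhere over the gene (46.5 TPM, 7.65-fold H3K9ac).

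Of 12 proneural and basal progenitor genes 9 had H3K9cr and 10 H3K9ac. Hes6 had 163.0 TPM with 15.7-fold H3K9cr and 36.1-fold H3K9ac, and Eomes, the marker of basal progenitors, 112.9 TPM with 5.50-fold H3K9cr and 7.52-fold H3K9ac. Neurod1 had 51.5 TPM and 5.58-fold H3K9ac without H3K9cr, and Neurog1 12.1 TPM with neither. Of 16 genes of young neurons 13 had H3K9cr and 14 H3K9ac (15 and 16 over the whole gene). Tubb3, neuronal β-tubulin, had 1328 TPM with 18.7-fold H3K9cr and 49.1-fold H3K9ac, and Nefl, a neurofilament, 12.2 TPM with 7.11-fold H3K9ac and no H3K9cr. All 14 transcription factor genes of cortical neurons had both marks over the gene and 12 had both within 1 kb, with Neurod6 at 329.5 TPM, 10.2-fold H3K9cr and 17.7-fold H3K9ac.

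Ventral forebrain and GABAergic genes had low folds over wide peaks for their RNA. H3K9cr was at 14 of 15 and H3K9ac at 15 of 15. Median folds were 6.30 for H3K9cr and 10.6 for H3K9ac, and median widths 2793 bp and 6044 bp. All genes at 50 to 100 TPM had median folds of 11.5 and 26.4 and median widths of 1074 bp and 1646.5 bp. Neither trait was particular to this list. Median widths were 2025.5 bp and 5725 bp at the cortical transcription factor genes, and median folds 6.05 and 11.5 at the synapse genes. Dlx1, a transcription factor of the ganglionic eminences, had 497.9 TPM with 6.94-fold H3K9cr over 4605 bp and 13.7-fold H3K9ac over 6651 bp. Gad2, which makes GABA, had 84.6 TPM with 14.1-fold H3K9cr and 26.0-fold H3K9ac. Lhx8 had 47.7 TPM with 4.76-fold H3K9ac and no H3K9cr. Of 25 genes of synapses and excitability 19 had H3K9cr and 23 H3K9ac, with Vamp2 highest at 42.7-fold H3K9cr and 103.3-fold H3K9ac. The glutamate transporter gene Slc17a7 of mature neurons had 28.4 TPM and neither mark.

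Ribosomal protein and cell cycle genes had both marks almost throughout, as did all genes with much RNA. Of all genes at 100 TPM and above 96.5% had H3K9cr and 97.5% H3K9ac. The median was 1224 TPM for the ribosomal protein genes and 100.1 TPM for the cell cycle genes. All 21 cytosolic ribosomal protein genes had both marks, with median folds of 17.9 for H3K9cr and 44.8 for H3K9ac over median widths of 1433 bp and 1985 bp. Of 22 cell cycle genes 21 had H3K9cr and 22 H3K9ac, with median folds of 8.16 and 19.9. Cdk4, a kinase of the G1 phase, had 783.2 TPM with 20.8-fold H3K9cr and 54.96-fold H3K9ac.

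Genes of the enzymes and readers of the marks had shares to be read against the same 78.6% for H3K9cr and 88.6% for H3K9ac of all genes with at least 1 TPM. At 20 to 50 TPM these shares were 91.7% and 96.8%, and at 100 TPM and above 96.5% and 97.5%. Median TPM was 49.4 for the acyltransferases, 64.5 for the deacetylases and sirtuins, 112.9 for the readers and 27.8 for crotonyl-CoA metabolism. All 10 lysine acyltransferase genes had both, with Ep300, which encodes p300, at 54.7 TPM with 34.8-fold H3K9cr and 85.9-fold H3K9ac, and Crebbp, which encodes CBP, at 32.1 TPM with 12.2-fold H3K9cr and 26.7-fold H3K9ac. Among the class I deacetylases and sirtuins 8 of 10 had H3K9cr and 10 H3K9ac. Hdac2 had 20.3-fold H3K9cr and 51.7-fold H3K9ac at 404.7 TPM. The peaks assigned to Hdac1, 33.8-fold H3K9cr and 77.1-fold H3K9ac, lay outside the gene, within 1 kb of its end. That H3K9cr peak was shared with another gene and was nearest to the listed start of Marcksl1. Sirt1 (24.7 TPM, 7.28-fold H3K9ac) and Hdac8 (14.3 TPM, 4.85-fold H3K9ac) had no H3K9cr. All 12 readers had both, such as the YEATS domain gene Yeats4 with 22.0-fold H3K9cr and 59.7-fold H3K9ac. Of 9 genes of crotonyl-CoA metabolism 7 had H3K9cr and 8 H3K9ac, at median folds of 5.402 for H3K9cr and 12.4 for H3K9ac. Echs1, which hydrates crotonyl-CoA, had 11.3-fold H3K9cr and 18.4-fold H3K9ac, and Acox3 had 10.7-fold H3K9ac without H3K9cr.

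**Figure D5:**
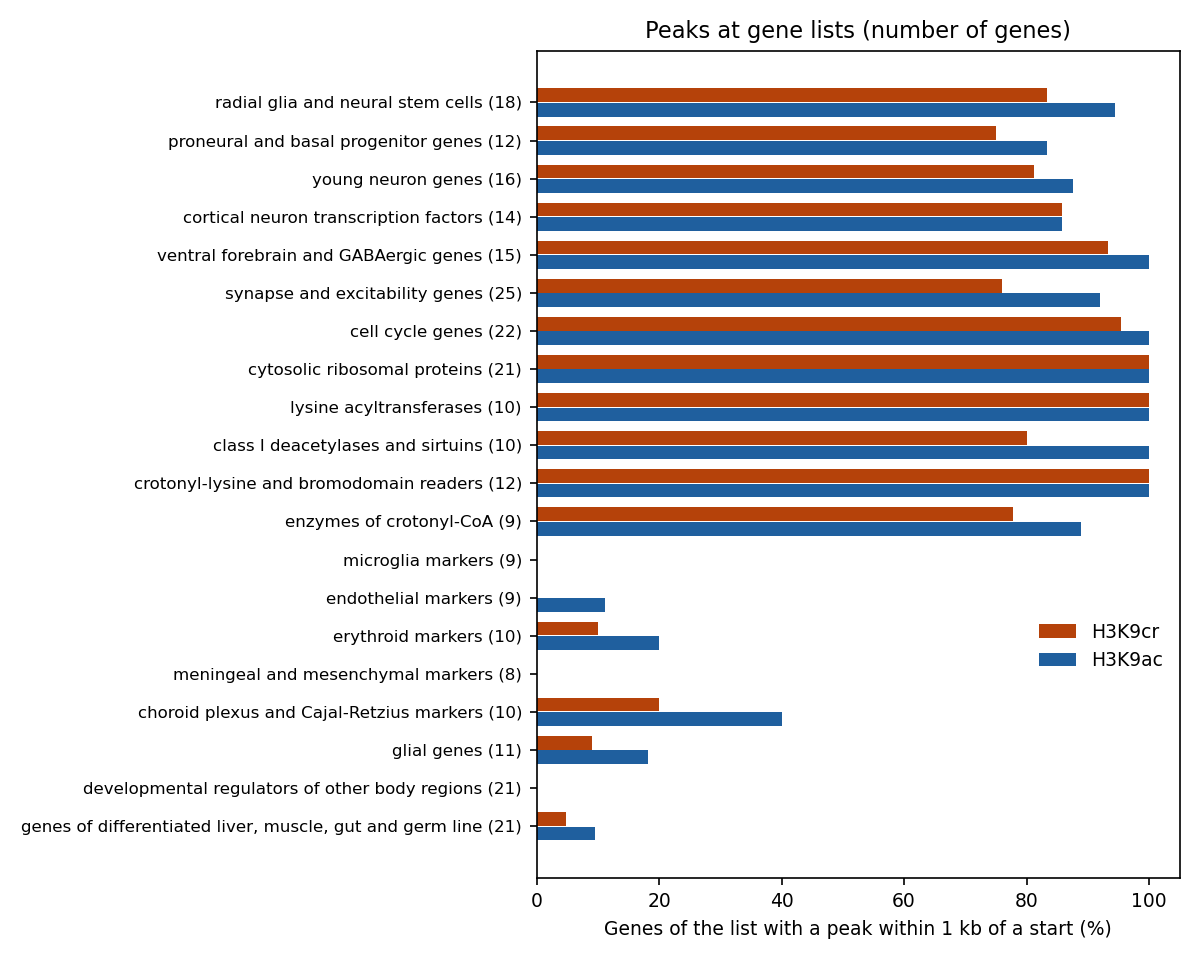
Share of the genes of each list with a peak within 1 kb of the position used (x axis, percent), with H3K9cr as the upper and H3K9ac as the lower bar and the number of genes in parentheses. The lists of forebrain cells, housekeeping and chromatin genes lie between 75% and 100% for H3K9cr, and the lists of other cell types and silent genes at 20.0% or below.

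Genes of other cells and places had little of either mark. Of all genes, H3K9cr was at 2.34% at 0 TPM, 10.9% above 0 to 1 TPM, 37.2% at 1 to 5 TPM and 74.4% at 5 to 20 TPM. For H3K9ac these shares were 3.98%, 23.3%, 61.3% and 88.8%. The median was 4.32 TPM for the microglial and 9.93 TPM for the endothelial genes. None of 9 microglial genes had a peak of either mark, although 8 of 9 reached 1 TPM and Csf1r, their growth factor receptor, had 8.71 TPM. Of 9 endothelial genes none had H3K9cr and 1 had H3K9ac, the receptor gene Kdr (11.3 TPM, 4.26-fold), and Cldn5 had 18.0 TPM with neither. None of 8 meningeal and mesenchymal genes was marked. Of 10 genes of choroid plexus and Cajal-Retzius neurons 2 had H3K9cr and 4 H3K9ac, with Reln, the secreted protein of Cajal-Retzius neurons, at 76.4 TPM, 7.33-fold H3K9cr and 14.1-fold H3K9ac. Of 11 glial genes 1 had H3K9cr and 2 H3K9ac. None of 21 developmental regulators of other body regions had either mark at the start, and 14 of them were at 0 TPM. Of 21 genes of differentiated liver, muscle, gut and germ line 1 had H3K9cr and 2 had H3K9ac, at a median of 0.061 TPM. The counts of these last 2 lists are near the shares of all genes with as little RNA. Of 10 erythroid genes 1 had H3K9cr and 2 H3K9ac, with Klf1 (0.399 TPM) at 5.04-fold H3K9cr and 6.83-fold H3K9ac.

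Forebrain peaks shared by both marks were met more often in cultured NSPCs than peaks with H3K9ac alone. In control NSPCs 63.7% of forebrain H3K9cr peaks met a pan-crotonyl-lysine peak and 72.2% a pan-acetyl-lysine peak. Forebrain H3K9ac peaks shared with H3K9cr met a pan-crotonyl-lysine peak in 68.5% and a pan-acetyl-lysine peak in 77.5%, and those without H3K9cr in 19.8% and 28.8%. The shared H3K9ac peaks were also the wider and higher, with medians of 1400 bp and 19.6-fold, against 484 bp and 4.61-fold. No comparison at like width or fold was made, so the part of H3K9cr in this difference was not tested. Shared H3K9cr peaks at starts met a pan-crotonyl-lysine peak in 67.2%, and shared far peaks, as defined above, in 44.2%. The culture lists hold positions without folds, and pan-lysine antibodies see other residues besides lysine 9.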

How the data were processed

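Reads were aligned with Bowtie2 2.3.5.1 and peaks called with MACS2 2.2.5 on GRCm38, and RNA was quantified with Salmon 1.0.0, per the submitters' processing notes. The fold enrichment of each peak is a ratio at its summit made by the authors, and −log10 p and −log10 q were deposited beside it; the lowest −log10 q of the lists is 1.31 for H3K9cr and 1.33 for H3K9ac. The TPM values are the authors' own, 1 column of 53974 genes that sums to 999435. The total reads per library were not given in the sources used here. The depth behind each peak was recovered from fold = (n + 1)/(background + 1) and a Poisson p, which gave a whole n within 0.001 in −log10 p for 100% of peaks. The intervals of n, exact Poisson, and of shares, exact binomial (95%), cover counting error only, and where no fragment is counted up to 3 remain possible.

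Peaks overlap when they share at least 1 bp. Positions came from RefSeq (GRCm38.p6): listed starts for 20682 genes and both ends for 4151 protein-coding genes, 46.0% of the genes in the TPM table and 87.1% of its TPM. The table of starts used here has none for chromosome 18. No gene-wise test is possible with 1 library per mark, so values are descriptions. Correlations are Spearman's, with Pearson's r of log2 fold and log2(TPM + 1) as a second value. The comparisons, gene lists and named genes were chosen with earlier results of these data known. Named genes are the 8 with the highest H3K9cr fold, 8 per direction with the largest rank difference, 6 with the widest H3K9cr peak, 8 per class of marks with the most TPM, and from each list the 2 highest in TPM with both marks and the highest without H3K9cr; predicted genes were left out, and a few items chosen by this rule are not reported here. Lists are counted in full. The functions for overlap, correlation and recovery of n were tested on simulated data. Tables were handled in pandas 2.3.3, intervals and correlations came from SciPy 1.17.1, and figures were drawn with matplotlib 3.10.9, all under Python 3.11.15.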

Additional observations from a re-analysis of the deposited data

How the results depend on the processing

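Directions were the same under the alternatives run, apart from the one with lists of equal length, but sizes moved. When 50% of both peaks had to be covered, 67.2% of H3K9cr and 50.5% of H3K9ac peaks were shared, and the fold correlation, 0.85 over all pairs, was 0.94. Among the top 5000 peaks of each list 90.3% of H3K9cr and 88.7% of H3K9ac peaks were shared. Lists of equal length leave these 2 shares little room to differ, so this run does not bear on their difference. With −log10 q of at least 10, 99.96% of H3K9cr peaks were shared, the fold correlation was 0.87, H3K9cr was lower in 99.9% of pairs, median widths were 981 bp for H3K9cr and 1318 bp for H3K9ac, the correlations with RNA were 0.36 for H3K9cr and 0.50 for H3K9ac, genes of at least 1 TPM had H3K9cr in 66.4% and H3K9ac in 83.7%, and 2 genes had H3K9cr alone. With −log10 p in place of fold the correlation was 0.853 and H3K9cr was lower in 99.7% of pairs. With 1 peak meeting 1 peak the correlation was 0.936. Within 2 kb 79.7% of these genes had H3K9cr and 89.4% H3K9ac. Without a TPM filter the RNA correlation of H3K9ac was 0.563. Alternatives added after seeing the data gave a fold correlation of 0.856 and H3K9cr lower in 99.7% of pairs with fragments as the measure, and 0.939 for single pairs with summits within 200 bp. They gave RNA correlations of 0.514 for H3K9cr and 0.618 for H3K9ac at peaks of 1 gene only, and of 0.460 for H3K9ac in genes with both marks. Genes with a listed start had H3K9cr in 79.9% and H3K9ac in 89.6%, and counting peaks anywhere over the gene gave 82.4% and 92.0%. Of the alternative values of the main results 29 stayed within the limits set around the first value and 31 moved. Of the values at single genes 248 stayed and 9 moved. A gene that kept its highest peak could not move in that count, and a gene that lost its peak was not counted. With −log10 q of at least 10 only 50 of the 66 named genes with H3K9cr kept a peak of it, against 70 of the 71 with H3K9ac. The causes were not tested. No paired analysis was possible because each mark has 1 library. Depth limits the lower end: 1 fragment is worth 0.262-fold for H3K9cr and 0.243-fold for H3K9ac, and a signal under the threshold is not seen. Marks were measured with 1 antibody each, and a list of peaks holds no value where no peak was called.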

Other observations

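Genes on the X chromosome had lower folds than autosomal genes with like RNA. At 20 to 50 TPM the median H3K9cr fold was 7.59 at X-linked and 10.1 at autosomal genes, and the median H3K9ac fold was 15.3 and 22.1. At 50 to 100 TPM it was 7.59 and 11.8 for H3K9cr, and 14.7 and 26.7 for H3K9ac. H3K9cr was found at 83.7% of 123 X-linked and 92.0% of 3298 autosomal genes at 20 to 50 TPM, and H3K9ac at 95.1% and 96.9%. At like H3K9ac fold the share of H3K9ac peaks with H3K9cr lay close together: between 6- and 8-fold it was 40.8% of 71 peaks on X (29.3 to 53.2%) and 44.0% of 1490 on autosomes (41.5 to 46.6%). The sex of the embryos is not given in the labels. The Y-linked gene Eif2s3y had 97.4 TPM and 14.6-fold H3K9ac, without H3K9cr over the gene, so tissue of male embryos was included. The share of male tissue is not known.

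Imprinted genes, of which 1 parental copy is silenced in at least some tissues, had median folds below those of other genes with like RNA. This list of 30 was made after values of some members were seen. Peg3 and Usp29 were given the same peaks of both marks, as were Peg10 and Sgce, and each gene was counted. Of the 26 with a position and at least 1 TPM 73.1% had H3K9cr and 80.8% H3K9ac, at a median of 76.6 TPM, and their median folds were 6.02 for H3K9cr and 14.3 for H3K9ac. In all genes of 50 to 100 TPM 95.1% had H3K9cr and 97.8% H3K9ac, with median folds of 11.5 and 26.4. Meg3, a long noncoding RNA, had 665.2 TPM with 5.28-fold H3K9cr and 15.1-fold H3K9ac, and Cdkn1c, a cell cycle inhibitor, 127.7 TPM with 3.898-fold H3K9cr and 8.005-fold H3K9ac. Rian, another noncoding RNA of the Dlk1 and Meg3 cluster, had 524.8 TPM and neither mark over the gene. Snhg14 (746.6 TPM) had neither at its listed start but both elsewhere over the gene. Ube3a, with 51.99 TPM, had high folds, at 17.7-fold H3K9cr and 48.1-fold H3K9ac, as did Gnas, which encodes a G protein subunit, with 973.5 TPM, 20.2-fold H3K9cr and 37.8-fold H3K9ac, and Mkrn3 with 12.9 TPM, 14.003-fold H3K9cr and 38.3-fold H3K9ac.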
